A study of Mus musculus with 2 samples.

Results

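The Krüppel-like factors (KLFs) were examined in bone marrow progenitors of mice with and without a mammary tumor. The 9 genes described here, Klf2, Klf3, Klf4, Klf6, Klf7, Klf9, Klf10, Klf13 and Klf16, were taken by symbol from the 24421 gene symbols in the deposited values. RNA was sequenced in bulk from granulocyte-monocyte progenitors (GMPs), which had been isolated by flow cytometry from bone marrow of female mice on an F1 semi-syngeneic (H-2b/d) background. One group was non-tumor-bearing (NTB-GMP). The other (4T1-GMP) carried orthotopic implants of 4T1 cells, a line derived from a mammary carcinoma of the mouse. Each group was 1 library, so no difference below has a replicate error or a p-value. The study's methods describe young adult mice throughout and 4T1 implantation in the BALB/c strain, which differs from the background in the labels. They also describe a sort of lineage-negative cells for GMPs by CD150, CD16/32, Sca-1 and c-Kit in other experiments, without stating that it was used for these libraries. The number of mice per library and the size of the tumors were not found in the labels or methods for these libraries.

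KLFs are zinc finger proteins that bind GC-rich and CACCC sequences in promoters, as do the related SP factors. Some, such as KLF2, KLF4 and KLF6, mostly activate transcription, whereas KLF3 recruits the corepressor CtBP and KLF9, KLF10, KLF13 and KLF16 recruit SIN3 corepressors. In blood cells, KLF4 is known for promoting monocyte differentiation, KLF1 for erythroid differentiation and KLF2 for quiescence and trafficking of lymphocytes and for restraining myeloid inflammation.

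Values were deposited as RPKM, reads scaled to gene length in kilobases and to library size. The whole reads behind the RPKM were recovered from their digits as lower bounds, and totalled 9486704 for NTB-GMP against 26353095 for 4T1-GMP, a 2.78-fold difference. The library sizes by which the RPKM had been divided were 10180365 and 30016263, a 2.95-fold difference. Those sizes were not whole numbers and may have been scaled before division, so they are not a measure of raw depth. The comparison took in the 10378 genes whose mean RPKM over both libraries was 1 or more, and 8 of the 9 KLF genes passed. Klf4, at a mean of 0.802 RPKM, did not, and its values are given without being counted among the 8. Differences are given as 4T1-GMP minus NTB-GMP on the log2(RPKM + 0.1) scale, where the difference of low genes is understated, and as the plain ratio of RPKM with its 95% Clopper-Pearson interval. Those intervals, and the 95% Poisson intervals on levels, cover the counting of reads in these libraries only, and reads amplified by PCR without molecular identifiers are not independent molecules. The GMP genes Mpo (5160 and 5620 RPKM in NTB-GMP and 4T1-GMP) and Elane (1850 and 2940 RPKM) were abundant in both libraries. Reads of Rn45s, the ribosomal RNA precursor, were 17.0% of the NTB-GMP library size and 6.98% of that of 4T1-GMP, or 18.2% and 7.95% of the recovered reads. Without these reads in the library sizes, the ratio of RPKM of every gene moved by -0.16 on the log2 scale.

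The members whose levels differed most in each direction are shown first by their promoters, since the KLF sequence itself can be read there. The sequences run from 250 bases before the annotated start of transcription to 50 after it (RefSeq, GRCm38.p6), 5′ to 3′ on the strand of the gene, with capitals on the KLF core CACCC or its reverse complement GGGTG. Klf2 (chr8:72318812-72319111, plus strand) and Klf4 (chr4:55532426-55532725, minus strand) were lower in 4T1-GMP, and Klf3 (chr5:64803271-64803570, plus strand) was higher.
Klf2: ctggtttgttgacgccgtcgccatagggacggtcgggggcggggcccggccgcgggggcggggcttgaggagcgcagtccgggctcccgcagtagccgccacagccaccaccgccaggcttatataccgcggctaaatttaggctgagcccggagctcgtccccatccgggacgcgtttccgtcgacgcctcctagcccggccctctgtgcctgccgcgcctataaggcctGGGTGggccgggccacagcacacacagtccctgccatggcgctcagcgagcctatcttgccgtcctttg
Klf4: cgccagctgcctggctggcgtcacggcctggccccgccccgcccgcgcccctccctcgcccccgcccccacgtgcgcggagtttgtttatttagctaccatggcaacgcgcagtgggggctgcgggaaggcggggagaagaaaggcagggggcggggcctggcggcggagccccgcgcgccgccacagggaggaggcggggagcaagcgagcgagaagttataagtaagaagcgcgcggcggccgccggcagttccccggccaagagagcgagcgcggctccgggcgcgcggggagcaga
Klf3: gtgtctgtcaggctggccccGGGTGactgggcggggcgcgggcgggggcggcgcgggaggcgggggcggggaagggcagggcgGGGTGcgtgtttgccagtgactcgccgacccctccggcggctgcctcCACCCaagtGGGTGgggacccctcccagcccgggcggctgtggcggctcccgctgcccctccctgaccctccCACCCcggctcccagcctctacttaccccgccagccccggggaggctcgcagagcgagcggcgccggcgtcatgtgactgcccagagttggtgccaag

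The Klf3 window held 5 matches to the 5 letters, the Klf2 window 1 and the Klf4 window 0. Promoter sequences were matched for 7 of the 9 genes. Among the other 4 of them, Klf7 had 3 matches, Klf9 and Klf13 had 1 each and Klf6 had 0. For scale, 57.5% of 32851 promoter windows of the same length held at least 1 match and 9.35% held 3 or more. The Klf2 window also held 1 match, beginning at position -118 from the start, to the motif of MEF2, a factor known to drive Klf2 transcription (CTA, then 4 letters that are A or T, then TAG, which reads as the same pattern on the opposite strand). That motif was looked for after the sequence had been seen. It was found in 0.557% of all windows and in none of the other 6 KLF windows. These matches describe letters only, and no binding was measured. GC-rich sequences, which KLFs also bind, were not counted, so a window with 0 matches is not one without KLF sites.

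Klf4 showed the lowest ratio of the 9 genes, and Klf2 came next. Klf4 (chromosome 4, 55527143 to 55532466, GENCODE M21 on GRCm38), the monocyte-promoting member, had 1.48 RPKM (46 reads) in NTB-GMP and 0.120 RPKM (11 reads) in 4T1-GMP. Its ratio was 0.0811 (interval 0.0379 to 0.159), or 12.3-fold lower in 4T1-GMP (interval 6.29 to 26.4), although the 4T1-GMP library was the deeper one. On the log2(RPKM + 0.1) scale the difference was -2.85, and of the 14833 genes above 0 in either library, 84 were at or below that value. Klf2 (chromosome 8, 72319033 to 72321656) had 2.81 RPKM (52 reads) in NTB-GMP and 1.19 RPKM (65 reads) in 4T1-GMP. Klf2 was 2.36-fold lower in 4T1-GMP (interval 1.61 to 3.45), a log2 difference of -1.17. Of the genes compared, 3.67% had a lower log2 difference than Klf2. For both genes the Poisson intervals of the levels in NTB-GMP and 4T1-GMP did not overlap. In bulk RNA, fewer cells that express a gene and less of its RNA per cell cannot be told apart.

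Klf13 and Klf6, which were the most abundant members in NTB-GMP, were lower in 4T1-GMP by a smaller amount. Klf13 (chromosome 7, 63886351 to 63938915), known as a late activator of the chemokine gene Ccl5 in T cells, had 17.6 RPKM (287 reads) in NTB-GMP and 12.4 RPKM (594 reads) in 4T1-GMP, a ratio of 0.702 (interval 0.609 to 0.811). Klf6 (chromosome 13, 5861482 to 5870394), an inflammation-responsive activator in myeloid cells, had 10.2 RPKM (440 reads) and 7.32 RPKM (926 reads), a ratio of 0.714 (interval 0.637 to 0.801). Their log2 differences were -0.51 and -0.48, and neither reached 2-fold.

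The 2 members that were higher in 4T1-GMP were Klf3 and Klf9. Klf3 (chromosome 5, 64803388 to 64832901), the CtBP-dependent repressor, had 6.16 RPKM (145 reads) in NTB-GMP and 7.98 RPKM (554 reads) in 4T1-GMP, a ratio of 1.30 (interval 1.08 to 1.57) and a log2 difference of 0.37. Klf9 (chromosome 19, 23141226 to 23168134), a target of the glucocorticoid receptor, had 9.51 RPKM (316 reads) and 12.1 RPKM (1187 reads), a ratio of 1.27 (interval 1.12 to 1.45) and a log2 difference of 0.35. Neither reached 2-fold. With library sizes taken without Rn45s, the ratio was 1.16 for Klf3 (interval 0.962 to 1.40) and 1.14 for Klf9 (interval 1.00 to 1.29).

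For Klf7, Klf10 and Klf16 no difference was detectable at this depth. Klf7 (chromosome 1, 64029447 to 64122282), a broadly expressed member, had 3.68 RPKM (50 reads) in NTB-GMP and 3.27 RPKM (131 reads) in 4T1-GMP, a ratio of 0.889 (interval 0.637 to 1.26). Klf10 (chromosome 15, 38291463 to 38300706), an early gene of TGF-β signaling, had 5.15 RPKM (200 reads) and 4.84 RPKM (555 reads), a ratio of 0.941 (interval 0.799 to 1.11). Klf16 (chromosome 10, 80567124 to 80577321), a SIN3-dependent repressor, had 5.41 RPKM (146 reads) and 5.21 RPKM (415 reads), a ratio of 0.964 (interval 0.796 to 1.17). All 3 intervals included 1. The log2 differences of -0.17, -0.09 and -0.05 became 0.02, 0.04 and 0.05 after quantile normalization. With library sizes taken without Rn45s, the interval of Klf10 was 0.714 to 0.993 and no longer included 1.

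**Figure D1:**
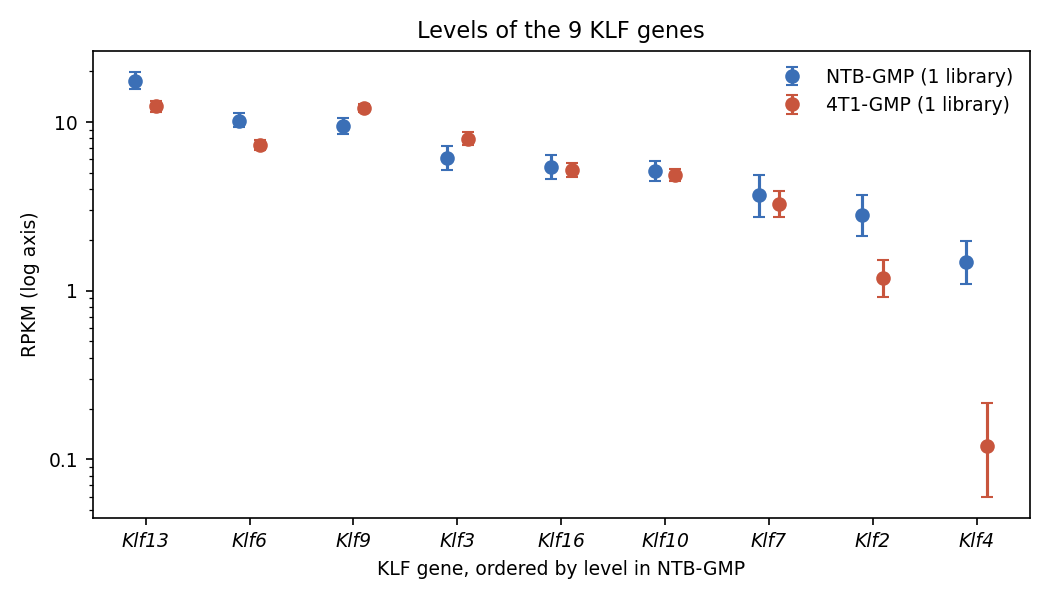
RPKM of the 9 KLF genes on a log axis, ordered by their level in NTB-GMP, with NTB-GMP in blue and 4T1-GMP in red (1 library each). Bars are 95% Poisson intervals of the reads; Klf4 stands at 1.48 and 0.120 RPKM and Klf2 at 2.81 and 1.19 RPKM in NTB-GMP and 4T1-GMP, while Klf9 and Klf3 are higher in 4T1-GMP.

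Counted together, 6 of the 8 genes compared were lower in 4T1-GMP and 2 were higher, against 45.3% lower among all genes compared. After quantile normalization, 3 of the 8 were lower. At least 2-fold lower was 1 of the 8, Klf2, against 4.92% of all genes, and at least 2-fold higher were 0 of the 8, against 3.25% of all genes. The log2 difference of Klf2 was close to that limit, at -0.96 after quantile normalization. The median log2 difference was -0.13 (interquartile range -0.49 to 0.05) over the 8 genes and 0.05 over all genes compared. After quantile normalization the median of the KLF genes was 0.03 and that of all genes 0.01. The median of these 8 genes thus stood near the rest of the genes, and they differed from each other, from -1.17 for Klf2 to 0.37 for Klf3. That median leaves out Klf4, at -2.85, and does not speak for the whole KLF family. The other 4 KLF genes compared, given below, were all lower, with a median of -0.49.

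**Figure D2:**
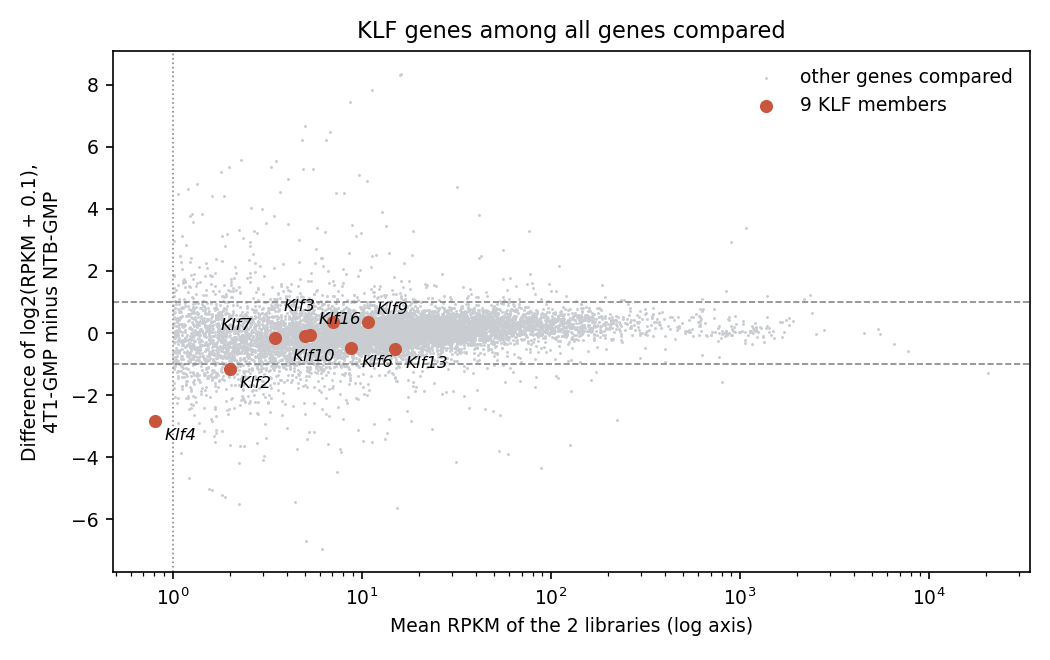
Difference of log2(RPKM + 0.1), 4T1-GMP minus NTB-GMP, against the mean RPKM of both libraries on a log axis, for all 10378 genes compared (gray) and the 9 KLF genes (red). Dashed lines mark 2-fold and the dotted line a mean of 1 RPKM; Klf4 lies left of that line at -2.85, Klf2 below the lower dashed line, and the other 7 between the dashed lines.

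The order of the levels was similar at its lower end and differed at its upper end. In NTB-GMP, Klf13 was highest at 17.6 RPKM (Poisson interval 15.6 to 19.8) and made up 28.4% of the summed RPKM of the 9 genes. It was followed by Klf6 and Klf9, whose intervals overlapped (9.31 to 11.3 and 8.49 to 10.6 RPKM). The next 4, Klf3, Klf16, Klf10 and Klf7, each overlapped with the gene below, as did Klf7 with Klf2. Klf4 was lowest, with an interval of 1.09 to 1.98 RPKM that did not overlap with that of Klf2. In 4T1-GMP, Klf13 (11.4 to 13.4 RPKM) overlapped with Klf9 (11.4 to 12.8 RPKM), and these genes made up 22.7% and 22.3% of the sum. Klf3 stood at 7.33 to 8.67 RPKM and Klf6 at 6.85 to 7.80 RPKM, also overlapping. Klf16, Klf10, Klf7, Klf2 and Klf4 followed in the order seen in NTB-GMP, and the intervals of the last 3 did not overlap. Klf4 accounted for 2.39% of the sum in NTB-GMP and 0.221% in 4T1-GMP, and Klf2 for 4.53% and 2.19%. Summed over the 9 genes, RPKM came to 62.1 in NTB-GMP and to 54.4 in 4T1-GMP. The members were modest in level, since the median RPKM of the 9 was 5.41 in NTB-GMP (12.1 for all genes compared) and 5.21 in 4T1-GMP (12.3 for all genes compared).

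Of the other 8 KLF genes, 4 passed the same minimum, and all 4 were lower in 4T1-GMP, against 45.3% of all genes compared. Klf1, under 1 RPKM in 4T1-GMP, passed only through NTB-GMP. Klf1, the erythroid member, was 6.68-fold lower (interval 3.54 to 13.2), at 2.18 RPKM (34 reads) in NTB-GMP and 0.326 RPKM (15 reads) in 4T1-GMP. The repressor Klf8 had 2.36 and 1.56 RPKM, a ratio of 0.662 (interval 0.522 to 0.844). Klf11, related to Klf10, had 5.30 and 4.39 RPKM, a ratio of 0.828 (interval 0.705 to 0.975). Klf5 had 2.05 and 1.51 RPKM, and with 12 and 26 reads its interval of 0.358 to 1.60 included 1. After quantile normalization the log2 difference of Klf11 was -0.14 and that of Klf5 -0.20. Klf12 had 6 reads in NTB-GMP (0.206 RPKM) and none in 4T1-GMP, where 3 reads, the floor used here, would be 0.0349 RPKM. Its NTB-GMP level was 5.90-fold that floor, which is not a bound on the difference. The near end of its counting interval was 3.47-fold lower in 4T1-GMP. Klf14, Klf15 and Klf17 were listed at 0 in both libraries.

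Of the 9 SP genes, Sp1, Sp2, Sp3 and Sp4 passed the minimum. In either direction 0 of them reached 2-fold, against 4.92% lower and 3.25% higher among all genes compared. Sp3 and Sp1 were more abundant than any KLF gene, at 36.6 and 32.1 RPKM in NTB-GMP and 38.3 and 29.1 RPKM in 4T1-GMP. The ratio was 1.05 for Sp3 (interval 0.990 to 1.11), 0.907 for Sp1 (interval 0.850 to 0.968), 0.734 for Sp2 (interval 0.606 to 0.893) and 0.957 for Sp4 (interval 0.830 to 1.11). The log2 difference of Sp3, 0.07, was -0.10 with library sizes taken without Rn45s and -0.09 after quantile normalization, and that of Sp4, -0.06, was 0.15 after quantile normalization. Sp6 had 1 and 2 reads, and Sp5, Sp7, Sp8 and Sp9 were listed at 0 in both libraries.

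**Figure D3:**
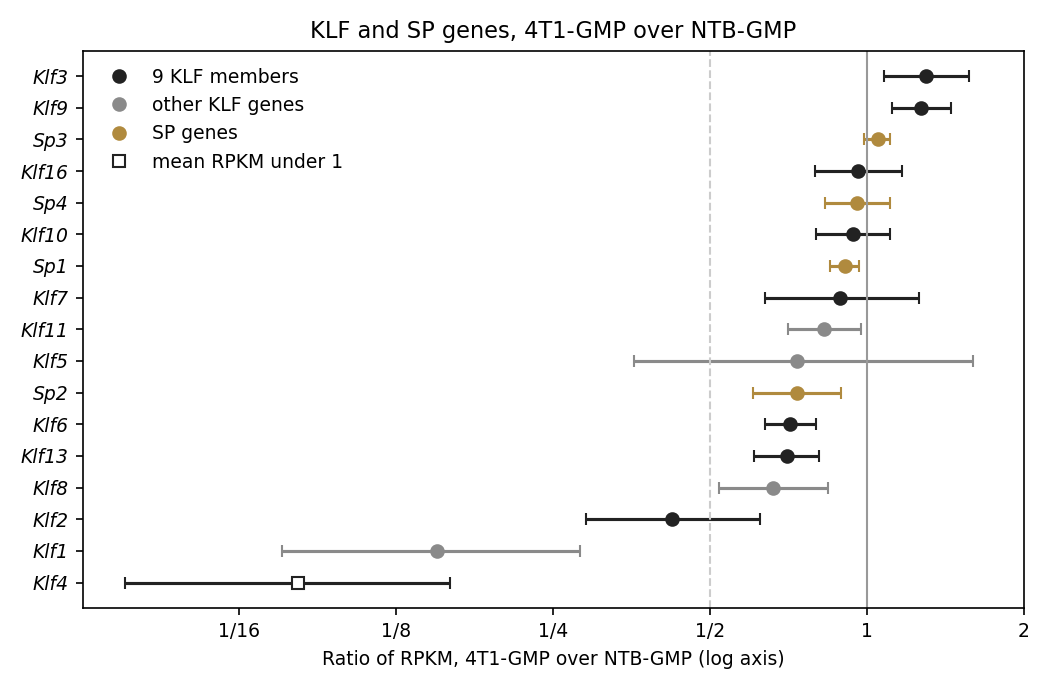
Ratio of RPKM, 4T1-GMP over NTB-GMP, on a log axis for the KLF and SP genes with reads in both libraries, leaving out Sp6 (1 and 2 reads). Bars are 95% Clopper-Pearson intervals of the reads, the solid line is a ratio of 1 and the dashed line a ratio of 1/2; Klf4, Klf1 and Klf2 lie left of the dashed line and Klf3 and Klf9 lie farthest right.

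Genes that work with KLFs were then described from lists written from knowledge of the field, but with earlier results of these data known. Counts from these lists, and from those in the paragraphs below, are therefore descriptions that are not independent of these data. Of 14 cofactors, including CtBP, SIN3 and p300 proteins, all passed the minimum, and the median log2 difference was -0.09. In 4T1-GMP 9 were lower and 5 higher, where 45.3% of all genes compared were lower. The CtBP genes through which KLF3 represses were at 60.5 and 56.1 RPKM for Ctbp1 and at 9.40 and 11.9 RPKM for Ctbp2, in NTB-GMP and 4T1-GMP respectively. Of 13 genes known as targets of KLF2 or KLF4, 7 passed the minimum, 3 lower and 4 higher, with a median of 0.10. On the log2(RPKM + 0.1) scale, 1 of these 7 was at least 2-fold lower (4.92% of all genes compared) and 0 at least 2-fold higher (3.25%). The lower one, Itgb7, an integrin subunit, was 4.96-fold lower in 4T1-GMP (9.33 against 1.88 RPKM, NTB-GMP first, as in the pairs that follow). Cd14, a monocyte receptor, was 2.02-fold higher (3.61 against 7.30 RPKM), just under 2-fold on the log2(RPKM + 0.1) scale. S1pr1, the egress receptor that KLF2 is known to activate in lymphocytes, was under the minimum, with 0.551 RPKM (17 reads) in NTB-GMP and 0.0770 RPKM (7 reads) in 4T1-GMP.

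Immediate early genes, which Klf2, Klf4, Klf6 and Klf10 can join when cells are stimulated or handled, were lower more often than not. Of 20, 14 passed the minimum, and 10 were lower and 4 higher in 4T1-GMP, against 45.3% lower among all genes. The median log2 difference was -0.63, against 0.05 for all genes. At least 2-fold lower were 5, against 4.92% of all genes, namely the AP-1 subunit genes Fosb (12.3 against 0.953 RPKM), Jun (44.1 against 11.7), Jund (10.1 against 4.09) and Fos (29.2 against 12.4), and Ppp1r15a (11.0 against 5.20). Junb went the other way, at 14.8 against 24.2 RPKM. Fosb, under 1 RPKM in 4T1-GMP, passed the minimum only through NTB-GMP. The part of such a response in the levels of Klf4, Klf2 and Klf6 was not tested. Of 13 glucocorticoid-response genes, 12 passed the minimum, among them Klf9, with 8 lower and 4 higher in 4T1-GMP and a median of -0.10. At least 2-fold lower was 1, Zbtb16 (15.7 against 4.63 RPKM), against 4.92% of all genes. At least 2-fold higher were 2, Mt1 (40.4 against 180 RPKM) and Sgk1 (2.48 against 5.51 RPKM), against 3.25% of all genes.

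Markers of other cells differed between the same libraries. For scale, 45.3% of all genes compared were lower in 4T1-GMP, 4.92% at least 2-fold lower and 3.25% at least 2-fold higher. A gene under 1 RPKM in one library passes the minimum only through the other, which ties its passing to its direction. Ly86, Cx3cr1, Gata1 and Gp9 passed in this way through NTB-GMP. Of 9 monocyte markers, 8 passed the minimum, 7 were lower in 4T1-GMP and 5 at least 2-fold lower, the median log2 difference was -1.27, and the summed RPKM was 233 in NTB-GMP but 120 in 4T1-GMP. Ly6c2 was the highest of them in NTB-GMP (88.7 and 36.8 RPKM). Of 10 dendritic cell markers, 5 passed and all 5 were at least 2-fold lower, with a median of -3.10 and sums of 110 and 12.7 RPKM, with Cd209a listed at 0 in both libraries. The 9 erythroid and megakaryocyte markers summed to 21.7 and 6.26 RPKM, of which Itga2b made up most (12.8 and 4.43 RPKM). All 3 that passed were at least 2-fold lower (median -1.60), Gata1 and Gp9 among them only through NTB-GMP. The globin genes Hba-a1 and Hbb-bt were listed at 0. Of 9 stem and early progenitor markers, 3 of the 6 that passed were at least 2-fold lower (median -1.35, sums of 134 and 53.5 RPKM), as were 3 of 6 basophil and mast cell markers (median -1.13, sums of 539 and 258 RPKM).

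By contrast, all 12 neutrophil markers were at least 2-fold higher in 4T1-GMP, against 3.25% of all genes compared. Their log2 differences were at least 1.33 and their sums 514 and 4070 RPKM. S100a9 was the highest of them in 4T1-GMP (189 and 1970 RPKM). Mmp8, Mmp9 and Ly6g, under 1 RPKM in NTB-GMP, passed the minimum only through 4T1-GMP. The list does not by itself tell mature neutrophils from immature granulocytic cells. Of 10 GMP markers, 6 were higher in 4T1-GMP and 4 lower, with a median of 0.39 and sums of 10700 and 16400 RPKM. The lower ones were Cd34 (154 and 59.4 RPKM), Kit (78.5 and 49.1), Fcgr3 (53.1 and 28.6) and Cebpa (45.6 and 35.5). Of the 10, 4 were at least 2-fold higher and 1, Cd34, at least 2-fold lower. Among 8 B cell and 9 T and NK cell markers, 1 each passed (Cd79b, 14.7 and 12.4 RPKM, and Nkg7, 190 and 337 RPKM), and Cd3g was listed at 0. Among 9 endothelial and stromal markers 1 passed, Pecam1 (29.5 and 11.3 RPKM), with Kdr and Col1a1 listed at 0. The part of cell mixture in the KLF differences was not tested. With 1 library per group, differences between mice or between library preparations cannot be told apart from the tumor.

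**Figure D4:**
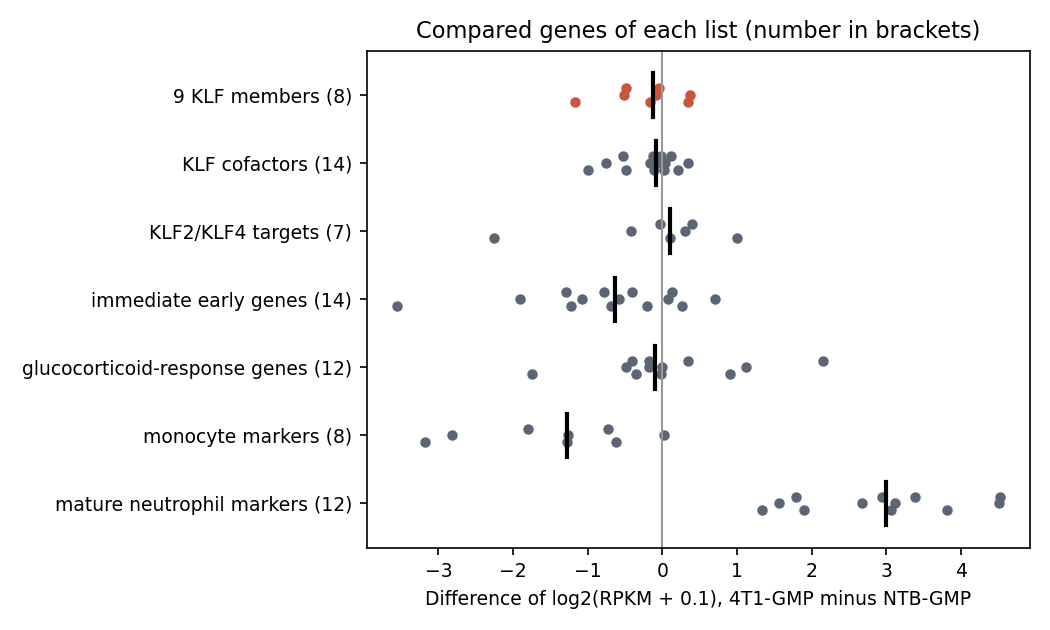
Difference of log2(RPKM + 0.1), 4T1-GMP minus NTB-GMP, for each gene that passed the minimum among the 9 KLF members and in 6 other lists (points, spread vertically only to separate them), with the number of genes in brackets and the median as a black line. The 8 KLF members that passed lie between -1.17 and 0.37. Klf4 (-2.85) and KLF genes outside the 9, such as Klf1 (-2.42), are not drawn. The immediate early, monocyte, KLF2 or KLF4 target and glucocorticoid-response lists reach farther left than the KLF members. The neutrophil genes (labeled mature neutrophil markers) all lie to the right of 1.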

How the data were processed

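Bulk RNA-seq libraries of GMPs from NTB and 4T1-bearing mice (1 each) were used. The authors deposited RPKM for each gene symbol. Per the labels, their processing notes name CASAVA 1.8.2, cutadapt 1.2.1, TopHat2 2.0.13, Picard 1.97, HTSeq 0.6.1, edgeR 3.12.1 and build mm10, without roles; gene lengths, strand setting and annotation were not given in the sources used here. A gene's RPKM depends on which reads entered the library size. The recovered library sizes were not whole numbers (10180365.24 and 30016262.80), and trimmed mean of M-values (TMM) scaling of the recovered reads moved the log2 ratios by 0.00, so the sizes may already hold such a scaling.

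Reads were recovered as the smallest whole numbers that give the deposited RPKM and a whole gene length, for 14833 of 14833 genes above 0, and total 9486704 in NTB-GMP and 26353095 in 4T1-GMP. The recovery was also run on simulated reads, but the outcome is not reported here. All read counts and counting intervals rest on this recovery. No significance test between the libraries was made. The pseudocount was 0.1, the minimum mean RPKM 1, the fold limit 2 and the floor 3 reads. The members and lists were chosen with earlier results of these data known. Named were all KLF and SP genes and, in other lists, genes at least 2-fold apart (at most 4 per direction). The highest gene of several cell type lists and some genes listed at 0 were named as well. Genes shown beyond these (Cd14, S1pr1, Ctbp1, Ctbp2, Junb, Ppp1r15a, Mpo, Elane, Kit, Fcgr3, Cebpa, Ly6g) and the MEF2 motif were chosen after values were seen. The values of 1 cofactor gene are not reported here. Alternatives were pseudocounts of 1 and 0.01, a minimum of 5 or none, library sizes without Rn45s, TMM, median-of-ratios and quantile scaling, and thinning of 4T1-GMP reads (20 draws). Python 3.11.15, numpy 2.4.6, pandas 2.3.3, scipy 1.17.1 and matplotlib 3.10.9 were used.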

Additional observations from a re-analysis of the deposited data

How the results depend on the processing

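The median log2 difference of the KLF genes, -0.13, was -0.29 with library sizes taken without Rn45s, which moved the median of all genes by -0.17, and reversed to 0.03 after quantile normalization, where the cause was not tested. The other alternatives gave between -0.17 and -0.05. The number of KLF genes at least 2-fold lower, 1 as reported, was 0 with a pseudocount of 1 (2.88% of all genes), 0 after quantile normalization (4.14%), 0 with a minimum mean of 5 RPKM, which leaves Klf2 out (2.27%), and 2 with all genes above 0, which lets Klf4 in (8.40%). It was 1 under the other alternatives. The number at least 2-fold higher was 0 throughout. Klf4 was at -1.15 with a pseudocount of 1 and at -3.52 with 0.01, as a low gene must move with the pseudocount. Of 126 values of 18 KLF and SP genes under alternatives, 117 lay within the counting interval carried to the log2(RPKM + 0.1) scale and 9 outside it, including values made with another pseudocount, which that scale does not match. None of the genes whose interval left out a ratio of 1 turned direction. Over 20 thinnings of the 4T1-GMP reads, Klf4 ran from -3.58 to -2.28 and Klf2 from -1.68 to -0.80. Among the 9 genes, depth limits Klf4, Klf7 and Klf2 most, with 46, 50 and 52 reads in NTB-GMP. No paired analysis was possible because no group held more than 1 library, which also means that no replicate could be dropped.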
